A study of Homo sapiens with 4 samples.

Results

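The proteins of the small ribosomal subunit were followed through their messenger RNAs and introns in the cytoplasm of SUM159, a long-established human cell line from a triple-negative breast tumour. The members were the genes named RPS followed by a number, with or without the letter A, together with RPS4X, RPSA and FAU. This gave 28 of the 15902 genes in the files and 108 of 142206 introns. For comparison, the proteins of the large subunit gave 45 genes with 177 introns. Cells were kept for 12 hours with H3B-8800, a compound that blocks splicing by the spliceosome, or with the solvent DMSO, and polyadenylated RNA was taken from the cytoplasmic fraction of 2 biological replicates per group. Both groups are the same line with no other named treatment. Each file lists 1 transcript per gene. For every intron it gives the reads inside the intron, called intronic reads, and a second count whose excess over the first was taken as the reads that span the intron, called spliced reads.

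The small subunit binds the messenger RNA, holds the initiator tRNA and reads the codons, while the large subunit joins the amino acids. Its proteins assemble on ribosomal RNA in the nucleolus, and loss of a single one can halt the maturation of the whole particle. Their genes are short and strongly transcribed, and several carry small nucleolar RNAs (snoRNAs), guides for the modification of ribosomal RNA, inside their introns. H3B-8800 binds the SF3B1 complex, which recognises the branch point, an adenosine shortly upstream of the end of an intron where the first step of splicing takes place.

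Library totals came to 58000000 and 62000000 reads for H3B-8800, and to 64000000 for either DMSO library, as recovered from the deposited RPKM values. Over all genes the intronic reads were 8.22% ± 0.036 of intronic plus spliced reads in H3B-8800 cells, against 4.24% ± 0.0051 in DMSO cells (SD, n = 2 each). The labelled line was checked against markers in CPM, here spliced reads scaled to the sum of spliced reads in the library and not to its total. Of the mesenchymal markers 8 of 8 exceeded 1 CPM in every library. Their summed levels were 8726 and 8593 CPM in H3B-8800 cells, against 9671 and 9669 in DMSO cells. Of 10 luminal markers 4 exceeded 1 CPM in every library, and ESR1 and PGR had 0 reads in all libraries. The 4 included KRT18, with 285 and 357 CPM in H3B-8800 cells, against 446 and 354 in DMSO cells. KRT8 had 161 and 164 CPM in H3B-8800 cells and 195 and 204 in DMSO cells. ERBB2 had 32.9 and 30.9 CPM in H3B-8800 cells and 39.6 and 37.3 in DMSO cells. GATA3 had 3.53 and 3.91 CPM in H3B-8800 cells and 1.90 and 2.75 in DMSO cells. The summed luminal level was 484 and 557 CPM in H3B-8800 cells, against 683 and 599 in DMSO cells, and their part in the results below was not tested.

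The member introns were short. They ranged from 79 to 7818 bp with a median of 427 bp, against 1459 bp over all introns. For 17 of the 28 genes every annotated intron was listed, whereas RPS3 had 2 of 6, RPS3A 1 of 5 and RPS29 1 of 2. An annotated exon of some transcript overlapped 89 of the introns, 36 were annotated as retained in some transcript, and 16 introns of 8 genes held a snoRNA. Release 29 of GENCODE also lists 381 processed pseudogenes of these genes, between 1 for RPS13 or RPS25 and 73 for RPSA. Reads of such copies lack introns, so how the authors placed reads shared with them can change the spliced counts, and the spliced values are uncertain to that extent.

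The bases at the ends of the introns are shown because the branch point, the pyrimidine tract and the final AG that SF3B1 and its partners recognise lie there. The last 60 bases of the intron are printed, 5′ to 3′ on the strand of the gene, with the final AG and any match to CTNAC, a short form of the branch point consensus, in capitals. They were read from GENCODE transcripts on GRCh38 (hg38) that keep the intron in an exon, which was possible for 52 of the 108 introns. The first set holds introns from among the 12 with the smallest adjusted p of the rises:
RPS21 intron 4: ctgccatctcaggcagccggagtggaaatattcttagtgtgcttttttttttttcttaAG
RPS28 intron 2: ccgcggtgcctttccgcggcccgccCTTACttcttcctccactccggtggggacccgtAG
RPS16 intron 3: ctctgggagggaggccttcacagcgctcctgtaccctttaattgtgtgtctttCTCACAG
RPS16 intron 4: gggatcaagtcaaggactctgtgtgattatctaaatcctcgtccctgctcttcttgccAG
RPS29 intron 1: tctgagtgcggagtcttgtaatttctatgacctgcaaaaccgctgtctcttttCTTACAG
RPS25 intron 1: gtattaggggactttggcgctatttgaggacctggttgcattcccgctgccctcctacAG
The second set holds introns whose intronic-to-spliced ratio did not pass the test of change:
RPS25 intron 2: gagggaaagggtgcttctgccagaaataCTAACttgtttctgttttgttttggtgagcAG
RPS2 intron 6: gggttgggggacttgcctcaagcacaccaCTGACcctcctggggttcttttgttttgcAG
The third set holds introns with a high intronic share already in DMSO:
RPS2 intron 1: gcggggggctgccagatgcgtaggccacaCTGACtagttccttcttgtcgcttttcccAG
RPS21 intron 5: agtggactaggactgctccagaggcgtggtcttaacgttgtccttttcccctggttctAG
FAU intron 1: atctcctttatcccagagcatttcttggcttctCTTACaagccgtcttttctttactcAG
RPS16 intron 2: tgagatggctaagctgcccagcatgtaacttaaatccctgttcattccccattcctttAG

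All 52 introns with a sequence began with GT and ended with AG. CTNAC, searched on the strand of the gene only, lay in the last 60 bases of 23 of them (44.2%), against 32.2% of the 7710 introns of all genes whose sequence could be read in the same way. The median share of pyrimidines was 75% in both, over the 20 bases that precede the final AG and the base before it. Of the 29 introns with a sequence whose ratio rose, 13 held the motif, and of the 7 that did not pass, 5 held it. The messenger RNAs shared a feature at their other end: of 22 members matched to RefSeq promoters (GRCh38.p14), 15 (68.2%) had only C or T in the first 5 bases from the start, against 5.17% of 35116 promoters. Such pyrimidine starts are known in ribosomal protein messenger RNAs as the element through which nutrient signalling controls their translation. These matches describe the letters in these windows and no more.

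The small subunit genes carried more intronic reads, relative to spliced reads, after H3B-8800. Summed over the 108 introns they numbered 8859 and 9628 in H3B-8800 cells, against 3655 and 3757 in DMSO cells, beside 726591 and 790340 spliced reads in H3B-8800 cells, against 819058 and 804934 in DMSO cells. The share was 1.20% in each H3B-8800 library, against 0.444% and 0.465% in the DMSO libraries, with means of 1.20% ± 0.00072 for H3B-8800 and 0.454% ± 0.014 for DMSO (SD, n = 2 each), a ratio of 2.65. The groups did not overlap, with H3B-8800 the higher, and the difference of 0.750 percentage points was far larger than the spread between replicates. An exact permutation test, two-sided, gave p = 0.333, which is the smallest that 2 libraries against 2 can give. The large subunit genes had 1.41% ± 0.022 in H3B-8800 cells, against 0.548% ± 0.017 in DMSO cells, a ratio of 2.58, and the difference between the subunits was not tested.

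Tested gene by gene, the ratio of intronic to spliced reads rose in 25 of the 28 members and fell in none (edgeR quasi-likelihood, Benjamini-Hochberg adjusted p under 0.05; no fall at an unadjusted p under 0.05 or with DESeq2 either). Over all 7566 genes tested, 65.4% were called higher and 2.35% lower. The median change of the members was 1.55 on the log2 scale, against 1.35 over all genes tested. The large subunit had 32 rises and 4 falls among 44 genes. In 26 of the 28 members the intronic share was higher in both H3B-8800 libraries than in both DMSO libraries. The share of all genes with such a separation was not computed, so this count cannot be called particular to the members.

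**Figure D1:**
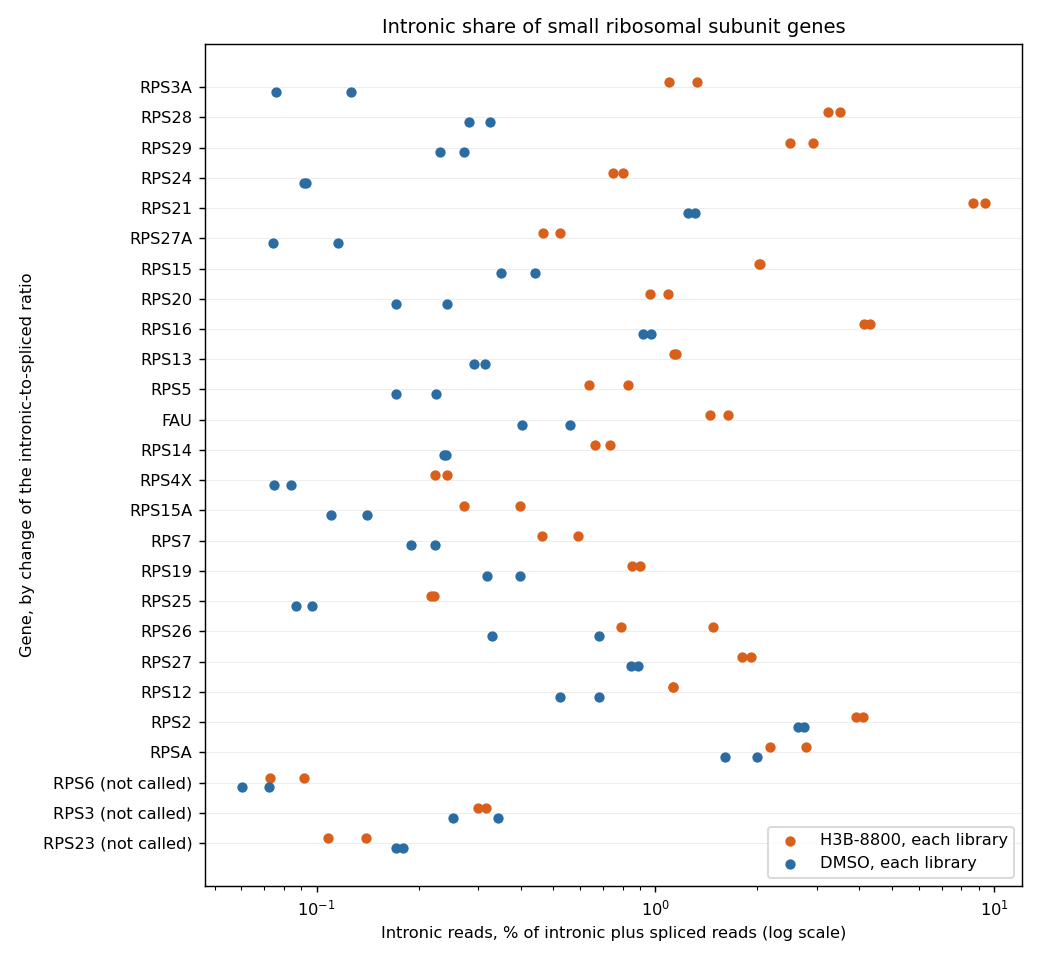
Intronic share of 26 of the 28 small subunit genes, in percent of intronic plus spliced reads on a log axis, with 1 point per library (H3B-8800 orange and above, DMSO blue and below) and genes ordered by the change of their intronic-to-spliced ratio. In 24 of them both H3B-8800 points lie to the right of both DMSO points, a count not made over all genes. RPS23 lies to the left, and RPS3 and RPS6 did not pass the test either.

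Large rises were seen in RPS3A, RPS28, RPS29, RPS24 and RPS21. RPS3A, a protein of the platform on the side where the messenger RNA leaves, had an intronic share of 1.09% and 1.33% in H3B-8800 cells, against 0.0756% and 0.126% in DMSO cells. Its ratio increased by 3.58 in log2 units (SE 0.35, edgeR adjusted p = 4.0e-07), and rests on a single listed intron. That intron had 81 and 105 intronic reads in H3B-8800 cells, against 5 and 8 in DMSO cells. With an average under 10 in DMSO cells, RPS3A entered the test only through H3B-8800, so a rise was favoured in advance. RPS28, a small protein at the neck of the subunit, had 3.52% and 3.24% in H3B-8800 cells and 0.281% and 0.325% in DMSO cells (log2 change 3.52, SE 0.21, edgeR adjusted p = 3.1e-09). RPS29, a zinc-binding protein of the head, had 2.92% and 2.49% in H3B-8800 cells and 0.272% and 0.232% in DMSO cells (log2 change 3.44, SE 0.30, edgeR adjusted p = 1.1e-07). In all 3 genes the lowest H3B-8800 library was several times the highest DMSO library.

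RPS21, a protein of the body, had the highest share of any member after treatment, with an intronic share of 9.42% and 8.64% in H3B-8800 cells, against 1.31% and 1.25% in DMSO cells (log2 change 2.93, SE 0.18, edgeR adjusted p = 3.7e-09). RPS24, mutated in some patients with Diamond-Blackfan anaemia, had 0.750% and 0.803% in H3B-8800 cells, against 0.0933% and 0.0916% in DMSO cells (log2 change 3.08, SE 0.17, edgeR adjusted p = 1.7e-09). That rise came from 1 intron: without the intron with the most intronic reads of each gene, the log2 change of RPS24 was −0.03 (edgeR adjusted p = 0.94). The same step left −0.02 for RPS25 (edgeR adjusted p = 0.95) and 0.43 for RPS27 (adjusted p = 0.32), so each of these 3 calls rested on a single intron.

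The 3 members that did not pass were RPS23, RPS3 and RPS6, and the smallest rise was in RPSA. RPS23, which lies at the decoding centre, had an intronic share of 0.108% and 0.140% in H3B-8800 cells, against 0.171% and 0.179% in DMSO cells (log2 change −0.49, SE 0.27, edgeR adjusted p = 0.11). RPS3, at the entry of the messenger RNA channel, had 0.316% and 0.300% in H3B-8800 cells and 0.344% and 0.253% in DMSO cells (log2 change 0.05, SE 0.30, edgeR adjusted p = 0.89). Its groups overlapped, and only introns 4 and 5 of the gene were listed. RPS6, the target of the S6 kinases, had 0.0915% and 0.0727% in H3B-8800 cells and 0.0603% and 0.0723% in DMSO cells (log2 change 0.31, SE 0.22, edgeR adjusted p = 0.23). RPSA, also known as the laminin receptor precursor, had 2.18% and 2.79% in H3B-8800 cells and 2.00% and 1.61% in DMSO cells, and its call (log2 change 0.47, SE 0.19, edgeR adjusted p = 0.039) was lost with DESeq2 (adjusted p = 0.20), without H3B-8800 replicate 2 (adjusted p = 0.36) and without DMSO replicate 2 (adjusted p = 0.20). The call of RPS26, a protein at the messenger RNA exit (log2 change 1.18, edgeR adjusted p = 0.0098), was likewise lost without H3B-8800 replicate 1 (adjusted p = 0.21) and without DMSO replicate 1 (adjusted p = 0.12).

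Within a gene the introns moved unequally. Of 24 genes with at least 2 tested introns, 10 had every tested intron called higher, 12 had some called higher and some not, and 2 had none called higher. Among the genes with several listed introns, 17 of 26 had the larger part of their intronic reads in H3B-8800 cells in 1 intron, and 10 of the 108 introns held 50.3% of the members' intronic reads in the H3B-8800 libraries.

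**Figure D2:**
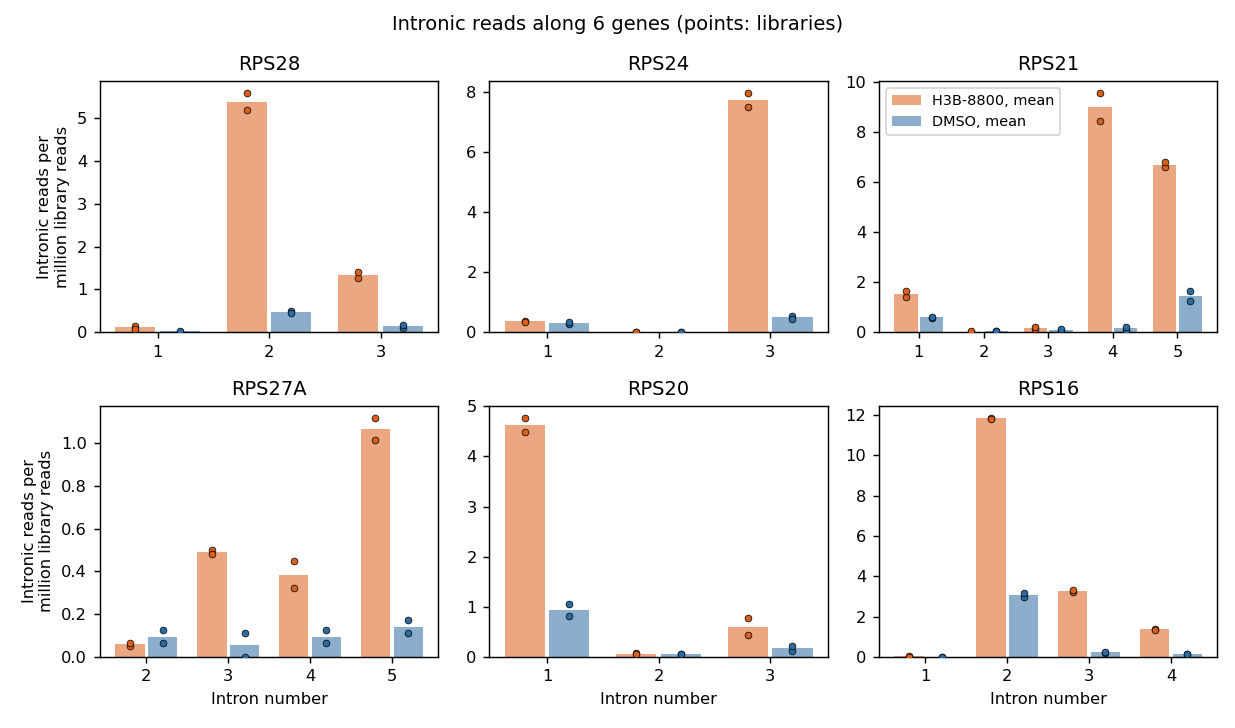
Intronic reads in CPM of the library total at each listed intron of the 6 genes with the largest change of the ratio among the 26 shown singly that have at least 3 listed introns. Bars are means of 2 libraries, H3B-8800 left in orange and DMSO right in blue, and points are libraries; the introns differ in length, and 1 or 2 introns carry most of the reads in each gene.

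In the test per intron, 70 of the 108 introns averaged at least 10 intronic and 10 spliced reads. Their intronic-to-spliced ratio rose in 50 and fell in 3, where 56.5% of all 9937 introns tested rose and 2.88% fell (edgeR adjusted p under 0.05). The average was taken over all 4 libraries, so introns with few DMSO reads could enter through H3B-8800, in the members and over all genes alike. In DMSO cells, RPS21 intron 4, RPS16 intron 4, RPS25 intron 1 and RPS4X intron 6 averaged under 10 intronic reads. So did, among others, FAU intron 4, RPS3A intron 1, RPS12 intron 2, RPS19 intron 5 and introns 3 to 5 of RPS27A. Such introns entered the test only through H3B-8800, so a rise was favoured in advance. The median log2 change was 1.75 in the members and 1.62 over all introns tested. The other 38 introns had too few intronic reads, together 208 and 162 in H3B-8800 cells, against 92 and 93 in DMSO cells. None of them was short of spliced reads, which numbered at least 322 in every library, and 2 of them, RPS24 intron 2 and RPS7 intron 3, had no intronic read in any library.

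The test of intronic reads alone, scaled by the library totals, called 47 of 70 introns higher and 4 lower, where 48.2% of all 12013 introns tested were higher and 5.74% lower. The median log2 change was 1.62 in the members and 1.13 over all introns tested. With either H3B-8800 library left out the edgeR test called no member intron at the adjusted threshold, although 37 introns were higher and 3 lower at an unadjusted p under 0.05 without replicate 1, and 36 and 3 without replicate 2. DESeq2 on all libraries called 41 higher and 2 lower. With TMM scaling of the intronic reads, which centres them on the bulk of the introns, 28 were higher and 12 lower. Of the 4 falls of the main scaling, 3 were in RPS3 intron 5, RPS23 intron 1 and RPS2 intron 6.

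RPS21 had the largest change of the ratio of any tested member intron. Its intron 4 (hg38 chr20:62387915-62388308, plus strand, 394 bp) had 555 and 525 intronic reads in H3B-8800 cells, against 6 and 13 in DMSO cells, beside 2849 and 3165 spliced reads in H3B-8800 cells, against 2766 and 2702 in DMSO cells. The intronic share there was 16.3% and 14.2% in H3B-8800 cells and 0.216% and 0.479% in DMSO cells, and the ratio increased by 5.68 in log2 units (SE 0.33, edgeR adjusted p = 4.7e-07). This intron averaged under 10 intronic reads in DMSO cells and entered the test only through H3B-8800, so a rise was favoured in advance. Its printed end holds a long run of T just before the last bases. The next intron of the gene behaved differently in DMSO: intron 5 (chr20:62388365-62388456, 92 bp) had 383 and 421 reads in H3B-8800 cells and already 105 and 81 in DMSO cells (log2 change 2.10, SE 0.24, edgeR adjusted p = 2.7e-05). Introns 2 and 3 of RPS21 had at most 13 intronic reads in any library.

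In RPS24, intron 3 (chr10:78035721-78037193, plus strand, 1473 bp) had 436 and 494 intronic reads in H3B-8800 cells, against 35 and 28 in DMSO cells (log2 change of the ratio 3.70, SE 0.22, edgeR adjusted p = 4.7e-07). It held 95.6% of the gene's intronic reads in the H3B-8800 libraries. Intron 1 of the gene, of similar length (1447 bp), had 22 and 21 reads in H3B-8800 cells and 17 and 22 in DMSO cells, and did not pass (log2 change 0.05, SE 0.31, edgeR adjusted p = 0.90). The introns of this gene thus differed widely in their intronic reads with H3B-8800.

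RPS16, whose tail reaches the tRNA in the peptidyl site, showed rises in 3 of its 4 introns. Intron 3 (chr19:39433570-39433664, minus strand), only 95 bp long, had 186 and 206 intronic reads in H3B-8800 cells, against 13 and 15 in DMSO cells (log2 change of the ratio 3.81, SE 0.28, edgeR adjusted p = 1.3e-06). Intron 4 (chr19:39433419-39433521, 103 bp) had 80 and 84 in H3B-8800 cells and 9 and 8 in DMSO cells (log2 change 3.37, SE 0.31, edgeR adjusted p = 7.0e-06). The long intron 2 (chr19:39433762-39435606, 1845 bp) had the most reads, 689 and 733 in H3B-8800 cells and 190 and 203 in DMSO cells, but a smaller change (log2 change 1.92, SE 0.20, edgeR adjusted p = 1.7e-05). Intron 1 of the gene had at most 2 intronic reads in any library.

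RPS28 intron 2 (chr19:8321704-8321952, plus strand, 249 bp) had 324 and 321 intronic reads in H3B-8800 cells, against 31 and 29 in DMSO cells (log2 change of the ratio 3.60, SE 0.24, edgeR adjusted p = 9.1e-07). RPS29 intron 1 (chr14:49586050-49586284, minus strand, 235 bp) had 105 and 102 in H3B-8800 cells and 14 and 12 in DMSO cells (log2 change 3.44, SE 0.30, edgeR adjusted p = 4.5e-06). Both are annotated as retained in some transcript. RPS25, which some viral messenger RNAs need for internal initiation, had 78 and 75 reads in its intron 1 (chr11:119018054-119018281, minus strand, 228 bp) in H3B-8800 cells and 8 and 8 in DMSO cells (log2 change 3.17, SE 0.29, edgeR adjusted p = 5.9e-06). Its intron 2 (chr11:119017546-119017957, 412 bp) had 30 and 39 in H3B-8800 cells and 29 and 33 in DMSO cells and did not pass (log2 change −0.02, SE 0.30, edgeR adjusted p = 0.95).

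RPS4X, the X-linked copy of its protein, had a very low intronic share and still a clear change near its end. Intron 5 (chrX:72273390-72273800, minus strand, 411 bp) had 79 and 79 intronic reads in H3B-8800 cells, against 11 and 10 in DMSO cells (log2 change of the ratio 3.44, SE 0.29, edgeR adjusted p = 3.6e-06). Intron 6 (chrX:72272773-72273231, 459 bp) had 42 and 62 in H3B-8800 cells and 1 and 1 in DMSO cells, beside 42547 and 45488 spliced reads in H3B-8800 cells, against 43354 and 41977 in DMSO cells. Scaled by the library totals, its intronic reads were 55.5 times higher, with an exact 95% interval from counting error alone of 15.0 to 464 (log2 change of the ratio 5.47, SE 0.48, edgeR adjusted p = 4.5e-06). That interval pools the libraries of a group and takes each read as independent, whereas the counts include both mates, so it is too narrow. No annotated exon and no other annotated gene overlaps either intron, and the spliced reads may include reads shared with the gene's 23 processed pseudogenes.

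Of the 3 falls of the ratio, those in RPS3 and RPS23 rest on few reads. RPS3 intron 5 (chr11:75404208-75404671, plus strand, 464 bp), which holds SNORD15B, had 5 and 6 intronic reads in H3B-8800 cells, against 26 and 20 in DMSO cells (log2 change −1.36, SE 0.42, edgeR adjusted p = 0.016). The call was lost with DESeq2 (adjusted p = 0.074) and without H3B-8800 replicate 1 (adjusted p = 0.072), H3B-8800 replicate 2 (adjusted p = 0.075) or DMSO replicate 1 (adjusted p = 0.051). RPS23 intron 1 (chr5:82277853-82278319, minus strand, 467 bp) had 8 and 13 in H3B-8800 cells and 24 and 34 in DMSO cells (log2 change −1.07, SE 0.38, edgeR adjusted p = 0.029), a call lost with DESeq2 (adjusted p = 0.12), with introns of at least 3 reads tested (adjusted p = 0.070) and without H3B-8800 replicate 1 (adjusted p = 0.14), H3B-8800 replicate 2 (adjusted p = 0.075) or DMSO replicate 2 (adjusted p = 0.098).

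Some introns were well read before any drug was given. RPS2, which lines the entry of the messenger RNA channel, had the highest intronic share in DMSO at its intron 1 (chr16:1964629-1964806, minus strand, 178 bp), with 66.8% and 51.6% in H3B-8800 cells and 41.6% and 40.3% in DMSO cells. RPSA intron 1 (chr3:39406765-39407620, plus strand, 856 bp) came next, with 49.1% and 52.7% in H3B-8800 cells and 30.8% and 25.4% in DMSO cells, but held only 26 and 39 intronic reads in H3B-8800 cells and 24 and 18 in DMSO cells. Its rise (log2 change of the ratio 1.41, SE 0.52, edgeR adjusted p = 0.033) was lost under 6 of 7 alternatives, with adjusted p from 0.049 to 0.15 over all 7. In RPS2 intron 1, the intronic reads themselves were alike, 525 and 587 in H3B-8800 cells, against 545 and 637 in DMSO cells, and did not pass (log2 change 0.00, edgeR adjusted p = 0.98). The spliced reads of that intron were 261 and 550 in H3B-8800 cells, against 766 and 943 in DMSO cells, and the rise of the ratio (log2 change 1.06, SE 0.30, edgeR adjusted p = 0.0088) was lost with DESeq2 (adjusted p = 0.065) and without H3B-8800 replicate 1 (adjusted p = 0.12). RPS2 intron 3 (chr16:1963257-1964275, 1019 bp), which the gene AC005363.1 overlaps (no source used here says whether reads were counted by strand, so the value is uncertain), had 11.5% and 7.64% in H3B-8800 cells and 9.56% and 7.38% in DMSO cells and did not pass. RPS2 intron 6 (chr16:1962271-1962496, 226 bp), with SNORA10 inside, had 217 and 233 intronic reads in H3B-8800 cells, against 384 and 373 in DMSO cells, a fall of the intronic reads (log2 change −0.66, edgeR adjusted p = 0.0015) whose ratio to spliced reads did not pass (log2 change −0.24, edgeR adjusted p = 0.27).

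FAU, which encodes a ubiquitin-like protein fused to a small subunit protein, had 9.04% and 6.78% intronic reads at its intron 1 (chr11:65121822-65122089, minus strand, 268 bp) in H3B-8800 cells and 4.89% and 3.30% in DMSO cells. That rise (log2 change 1.00, SE 0.32, edgeR adjusted p = 0.019) was lost with DESeq2 (adjusted p = 0.096), with introns of at least 3 reads tested (adjusted p = 0.066), without H3B-8800 replicate 1 (adjusted p = 0.15) and without DMSO replicate 2 (adjusted p = 0.11). FAU intron 4 (174 bp) moved more, with 40 and 51 reads in H3B-8800 cells and 2 and 4 in DMSO cells (log2 change 4.05, SE 0.46, edgeR adjusted p = 2.5e-05). RPS27A, whose protein is made as a fusion with ubiquitin, rose in 3 of its 4 listed introns, most in reads at intron 5 with 65 and 63 in H3B-8800 cells and 7 and 11 in DMSO cells (log2 change 2.98, SE 0.32, edgeR adjusted p = 2.0e-05).

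**Figure D3:**
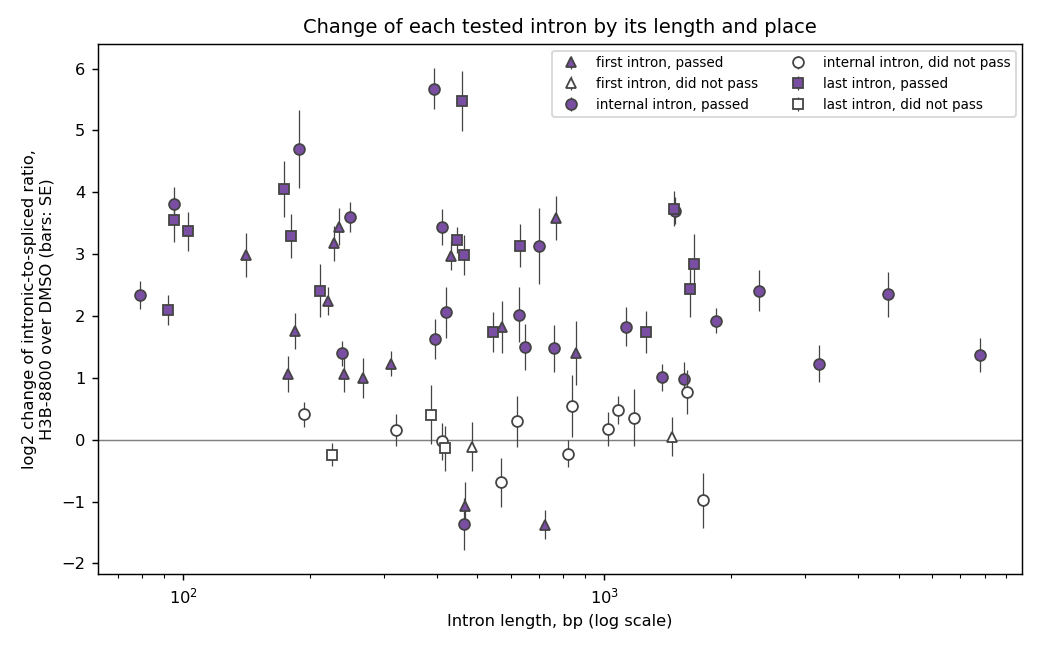
Log2 change of the intronic-to-spliced ratio, H3B-8800 over DMSO, with its SE, of the 70 tested member introns against intron length in bp on a log axis; the symbol gives the place of the intron and the fill whether it passed the test. Of the 6 tested introns of up to 150 bp all rose, and the 3 falls lie between 300 and 1000 bp. Some introns, short ones among them, averaged under 10 intronic reads in DMSO cells. They entered only through H3B-8800, which favoured a rise in advance.

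Grouped by place, the intronic share with H3B-8800 was 1.75% ± 0.047 in first introns, 0.973% ± 0.013 in internal introns and 1.44% ± 0.0092 in last introns, while with DMSO it was 0.886% ± 0.036 in first, 0.338% ± 0.013 in internal and 0.446% ± 0.0096 in last introns (SD, n = 2 each). The ratios between the groups were 1.97, 2.88 and 3.23 in that order. The value of the first introns rests on RPS2 intron 1. Without it, an alternative chosen after seeing the data, their share was 1.36% ± 0.044 in H3B-8800 cells and 0.475% ± 0.0053 in DMSO cells, a ratio of 2.86. The median log2 change of the tested introns was 1.41 in first, 1.39 in internal and 2.91 in last introns, and the differences between these places were not tested. Of the tested introns, 13 of 17 first introns rose and 2 fell, 22 of 35 internal introns rose and 1 fell, and 15 of 18 last introns rose and none fell (edgeR; 0 fell at an unadjusted p under 0.05 and 0 with DESeq2). Over all introns tested, of any place, 56.5% rose and 2.88% fell. Shares by place were not computed over all genes, so no place can be called particular to the members.

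Grouped by length, the 18 introns of up to 150 bp had a share of 0.974% ± 0.0072 in H3B-8800 cells, against 0.172% ± 0.0021 in DMSO cells (SD, n = 2 each), a ratio of 5.67. Only 6 of them were tested, and all 6 rose. Of these, RPS15 intron 3 (5 and 11 intronic reads) and RPS16 intron 4 (9 and 8) averaged under 10 in DMSO cells. They entered the test only through H3B-8800, so a rise was favoured in advance. Over all genes the introns of that length had a ratio of 3.38, and 76.5% of the 307 tested rose. Those of over 150 and up to 300 bp had 1.41% ± 0.018 in H3B-8800 cells and 0.802% ± 0.064 in DMSO cells, a ratio of 1.76. The ratio was 3.30 from there up to 1000 bp and 2.75 above 1000 bp. Over all introns in the files the tested ones of up to 150 bp had a median log2 change of 2.56, those up to 300 bp 2.13, those up to 1000 bp 2.05 and longer ones 1.48, and the members' medians were 3.18, 2.24, 1.49 and 1.37. These medians ran down with length in both sets. The ratios of the members' summed shares did not, but the class of over 150 and up to 300 bp rested largely on RPS2. Its introns 1, 4 and 6 had 545, 168 and 384 of the 1460 intronic reads of that class in DMSO replicate 1. In DMSO replicate 2 they had 637, 190 and 373 of 1601. In H3B-8800 cells they had 525, 278 and 217 of 2352, and 587, 379 and 233 of 2623. The ratios without RPS2 were not computed, and the difference between classes was not tested.

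Introns with a snoRNA inside had an intronic share of 1.82% ± 0.029 in H3B-8800 cells, against 0.820% ± 0.012 in DMSO cells, and those without one 1.08% ± 0.0073 in H3B-8800 cells and 0.370% ± 0.014 in DMSO cells (SD, n = 2 each). The ratios between the groups were 2.22 and 2.92. Of 13 tested introns with a snoRNA, 8 rose and 1 fell, and of 57 without one, 42 rose and 2 fell. Over all genes 60.7% of the tested introns with a snoRNA rose and 56.4% of those without, so the members with a snoRNA lay near the share of their class. The 19 introns that no annotated exon overlaps had the lowest shares, 0.144% ± 0.012 in H3B-8800 cells, against 0.0264% ± 0.0079 in DMSO cells, a ratio of 5.46. All 4 tested ones rose, where 62.7% of such introns rose over all genes. Among them, RPS12 intron 2 (0 and 2 intronic reads), RPS19 intron 5 (4 and 12) and RPS4X intron 6 (1 and 1) averaged under 10 in DMSO cells. They entered the test only through the H3B-8800 libraries, so a rise was favoured in advance. The 36 introns annotated as retained had 1.46% ± 0.039 in H3B-8800 cells and 0.599% ± 0.035 in DMSO cells, a ratio of 2.44, and 19 of 23 tested ones rose, where 67.8% did over all genes.

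**Figure D4:**
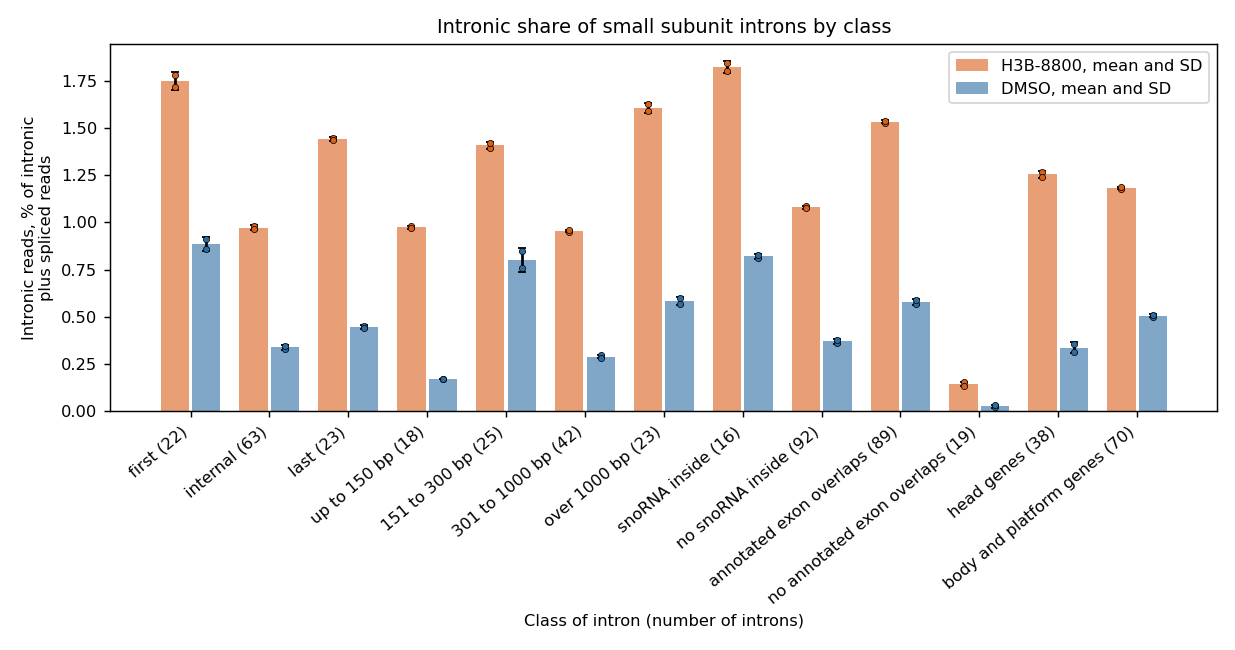
Intronic share of the member introns in each class, in percent of intronic plus spliced reads, with the number of introns in brackets. Bars are means with SD of 2 libraries, H3B-8800 left in orange and DMSO right in blue, and points are libraries; H3B-8800 lies above DMSO in every class shown, from 0.144% in H3B-8800 and 0.0264% in DMSO cells without an annotated exon to 1.82% in H3B-8800 and 0.820% in DMSO cells with a snoRNA inside.

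By position in the particle, the 11 genes of the head had a share of 1.25% ± 0.018 in H3B-8800 cells, against 0.338% ± 0.030 in DMSO cells, and the 17 genes of the body and platform 1.18% ± 0.0064 in H3B-8800 cells and 0.506% ± 0.0078 in DMSO cells (SD, n = 2 each). The ratios between the groups were 3.71 and 2.33. RPS2, of the body and platform, held 1347 and 1523 of their 6047 and 6601 intronic reads in H3B-8800 cells. In DMSO cells it held 1317 and 1413 of 2854 and 2856. Values without RPS2 were not computed, and the difference between the 2 sets was not tested. Among the head genes, RPS15 had 2.03% and 2.03% in H3B-8800 cells, against 0.441% and 0.349% in DMSO cells, and RPS20 0.965% and 1.09% in H3B-8800 cells and 0.171% and 0.242% in DMSO cells. RPS19, the gene most often mutated in Diamond-Blackfan anaemia, had 0.902% and 0.853% in H3B-8800 cells and 0.318% and 0.399% in DMSO cells. All 3 rose (log2 changes of the ratio 2.38, 2.33 and 1.30 with SE 0.22, 0.19 and 0.20).

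Spliced reads moved far less than intronic reads, and their direction depended on the scaling. With TMM scaling, which centres the changes on the bulk of the genes, spliced reads per gene rose in 20 of the 28 members and fell in 3, where 32.8% of all 9468 genes tested rose and 32.7% fell (edgeR adjusted p under 0.05). The median log2 change was 0.18 in the members, 0.22 in the large subunit and 0.01 over all genes. Scaled by the library totals, 5 members rose and 8 fell, where 23.6% of all genes rose and 41.5% fell, and the medians were −0.00 in the members, 0.04 in the large subunit and −0.16 over all genes. The 5 rises and the 3 falls that held under both scalings were in RPS3A, RPS24, RPS25, RPS19 and RPS27, and in RPS3, RPS2 and RPS29. No member was called in opposite directions by these scalings, and in bulk RNA less RNA per cell and fewer cells that carry it cannot be told apart.

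**Figure D5:**
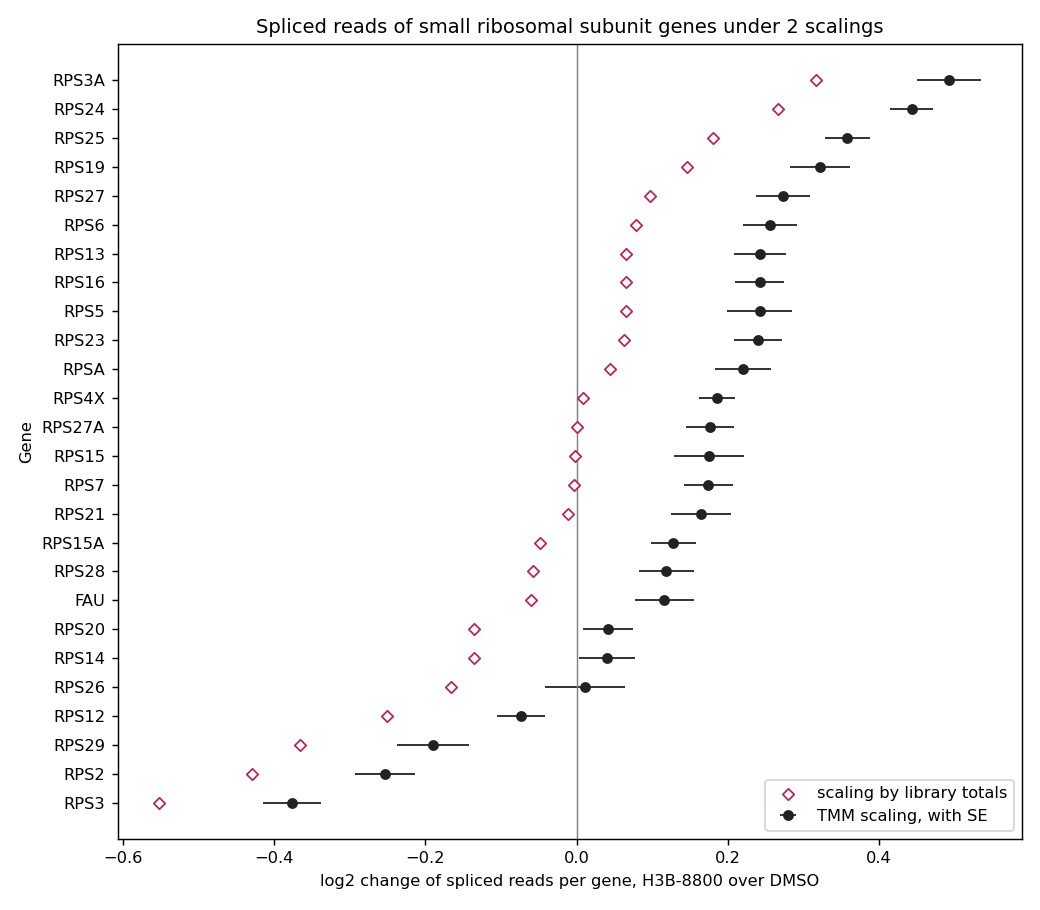
Log2 change of spliced reads per gene, H3B-8800 over DMSO, of 26 of the 28 small subunit genes, with TMM scaling (filled circles, bars are SE) and scaling by library totals (open diamonds). The change of scaling shifts all genes to lower values, to a median of −0.00 in place of 0.18 over all 28; RPS3A stays highest and RPS3 lowest.

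RPS3A rose most, with 640 and 628 CPM of spliced reads in H3B-8800 cells, against 460 and 442 in DMSO cells (log2 change 0.49, SE 0.042, edgeR adjusted p = 3.4e-07). RPS24 had 5303 and 5124 CPM in H3B-8800 cells and 3875 and 3794 in DMSO cells (log2 change 0.44, SE 0.029, edgeR adjusted p = 2.5e-08), and RPS25 had 4651 and 4470 in H3B-8800 cells and 3520 and 3596 in DMSO cells (log2 change 0.36, SE 0.030, edgeR adjusted p = 2.4e-07). These 3 genes therefore had a higher intronic-to-spliced ratio and more spliced reads at the same time. RPS19 had 1643 and 1751 in H3B-8800 cells and 1394 and 1321 in DMSO cells (log2 change 0.32), the zinc-finger protein RPS27 1700 and 1675 in H3B-8800 cells and 1430 and 1362 in DMSO cells (log2 change 0.27), and RPS6 5250 and 5316 in H3B-8800 cells and 4616 and 4234 in DMSO cells (log2 change 0.26). The groups did not overlap in any of them, but the call of RPS6 was lost with library totals (log2 change 0.08, edgeR adjusted p = 0.062).

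The falls were fewer. RPS3 had 745 and 777 CPM of spliced reads in H3B-8800 cells, against 987 and 989 in DMSO cells (log2 change −0.38, SE 0.038, edgeR adjusted p = 1.7e-06), counted over 2 of its 6 introns. RPS2 had 2751 and 3016 in H3B-8800 cells and 3387 and 3488 in DMSO cells (log2 change −0.25, SE 0.039, edgeR adjusted p = 7.8e-05). RPS29 had 306 and 322 in H3B-8800 cells and 357 and 359 in DMSO cells (log2 change −0.19, SE 0.047, edgeR adjusted p = 0.0031), counted over 1 of its 2 introns. With library totals the 3 log2 changes were −0.55, −0.43 and −0.37. RPS12, RPS26, RPS14 and RPS20 did not pass with TMM scaling, with log2 changes of −0.07, 0.01, 0.04 and 0.04.

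The factors that build or use the small subunit went both ways in spliced reads, and no difference from its proteins was tested. Of 59 tested genes for the processome and later maturation of the subunit, 22 rose and 28 fell in spliced reads (median log2 change −0.09), and in 55 tested for the ratio 46 rose and 1 fell (median 1.74). Over all genes 32.8% rose and 32.7% fell in spliced reads, and 65.4% rose and 2.35% fell in the ratio. These counts of spliced reads are with TMM scaling, and with library totals, tried after seeing the data, 15 rose and 33 fell (median −0.27). RRP7A, a processome component, had 49.2 and 47.6 CPM of spliced reads in H3B-8800 cells, against 141 and 142 in DMSO cells (log2 change −1.54, SE 0.068, edgeR adjusted p = 1.4e-09). TBL3, of the same complex, had 26.1 and 28.4 in H3B-8800 cells and 93.4 and 90.2 in DMSO cells (log2 change −1.75), and the snoRNP core protein NOP56 307 and 322 in H3B-8800 cells and 551 and 565 in DMSO cells (log2 change −0.83). LTV1, which escorts the subunit out of the nucleus, had 556 and 613 intronic reads in H3B-8800 cells and 46 and 38 in DMSO cells (log2 change of the ratio 3.73, SE 0.22, edgeR adjusted p = 3.7e-09). The ratio also rose in RPS19BP1, which binds RPS19, and in the processome component IMP4 (log2 changes 3.78 and 3.21).

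Of 22 factors that bind or modify the small subunit, 6 rose and 11 fell in spliced reads (median log2 change −0.17), and of 19 tested for the ratio 14 rose and none fell (edgeR; 0 at an unadjusted p under 0.05 and 0 with DESeq2), beside the same shares over all genes. With library totals 5 rose and 13 fell in spliced reads (median −0.35). EIF1, which guards the choice of the start codon, had 469 and 465 CPM of spliced reads in H3B-8800 cells, against 265 and 265 in DMSO cells (log2 change 0.82, SE 0.044, edgeR adjusted p = 6.6e-09). Among the kinases that phosphorylate RPS6, RPS6KA1 had 34.8 and 42.4 CPM in H3B-8800 cells and 116 and 127 in DMSO cells (log2 change −1.65). RPS6KB2 had 86.5 and 90.0 CPM in H3B-8800 cells and 190 and 182 in DMSO cells (log2 change −1.08). GNB2L1, also known as RACK1, a scaffold bound to the head, had 3447 and 3798 intronic reads in H3B-8800 cells and 828 and 858 in DMSO cells (log2 change of the ratio 2.48, SE 0.14, edgeR adjusted p = 2.1e-09). EIF2D, a recycling and initiation factor, and ZNF598, a ubiquitin ligase for stalled ribosomes, rose in the ratio by 2.55 and 2.89.

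Of 16 genes for RNA polymerase I and its factors, which make the ribosomal RNA, 6 rose and 4 fell in spliced reads (median log2 change 0.15), and of 11 tested for the ratio 6 rose and 1 fell. The rises in spliced reads lay near the 32.8% of all genes. In the ratio 65.4% of all genes rose, and with only 11 genes of this list no difference is read from the count, and none was tested. With library totals 5 rose and 5 fell, and the median turned to −0.03. TAF1D had 142 and 143 CPM of spliced reads in H3B-8800 cells, against 67.6 and 63.3 in DMSO cells (log2 change 1.12), UBTF 441 and 451 in H3B-8800 cells and 279 and 302 in DMSO cells (log2 change 0.62), and POLR1C 110 and 104 in H3B-8800 cells and 63.0 and 66.2 in DMSO cells (log2 change 0.73). The ratio rose in POLR2E, a subunit common to the RNA polymerases, and in POLR1E by 3.50 and 4.41, and in TAF1D by 1.93. RPS27L, a close relative of RPS27, had 141 and 143 CPM of spliced reads in H3B-8800 cells, against 120 and 101 in DMSO cells (log2 change 0.36, SE 0.077, edgeR adjusted p = 0.0011), and its ratio did not pass (log2 change 0.82, SE 0.37, edgeR adjusted p = 0.062).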

How the data were processed

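The members and the lists of related genes were chosen with earlier results of these data known. Libraries were polyA-selected and strand-specific, per the labels' protocols. The submitters' processing notes list HISAT2 (version 2.0.4) and, as builds, mm10 and hg38; no source used here names the counting tool or says whether reads were counted by strand. Each deposited file holds, per intron, 2 counts of reads and an RPKM value, per the values and without a header. The RPKM that the authors deposited is the first count over intron length and library total, and the total was recovered from it. The first deposited count was taken as intronic reads and the excess of the second as spliced reads, a reading inferred from the values. A read over several introns counts at each of them, and 70.9% to 72.3% of intronic counts above 0 were even, so reads are not independent. For 18 of 142224 introns no second count was given, which left 142206. Listed intervals include 1 exon base on each side; coordinates are given without them on hg38, 1-based, and 99.9% are then introns of GENCODE release 29 on GRCh38.

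Counts were fitted over all features by quasi-likelihood in edgeR 4.0.16 under R 4.3.3 (alternative: DESeq2 1.42.0), with Benjamini-Hochberg adjustment and a threshold of 0.05. Spliced reads were summed per gene, scaled by TMM and tested in genes that averaged 1 CPM or more. The CPM of spliced reads of members and related genes refer to the TMM-scaled sum of spliced reads in the library. They do not refer to the library total, which only the figure of intronic reads along 6 genes uses. Intronic reads per intron were scaled by the library totals, with a mean of at least 10. The ratio of intronic to spliced reads was tested, per intron and per gene, as an interaction in 1 model with a term per library, where both kinds averaged at least 10 reads. Each SE is the log2 change over the square root of F. Full values are given for the 6 largest rises and falls of spliced reads, the 12 introns with the smallest adjusted p that rose and up to 5 that fell, the 6 largest and 4 smallest changes of the ratio per gene, the 5 introns with the highest share in DMSO among those with at least 100 reads of both kinds together in each library, and 3 genes per related list; other items were named with their values in view. Of the members, 2 enter the fits and counts but are not reported here singly. The division into head, body and platform follows textbook knowledge of the particle. The tests were tested on simulated counts with known changes. RPS members not named in the text and genes without a listed intron were not analysed here.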

Additional observations from a re-analysis of the deposited data

How the results depend on the processing

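Limits: with 2 libraries per group, counts that include both mates and many pseudogene copies, p-values measure the spread between these 4 libraries only, and introns with under 10 reads of each kind were not tested. Of the members called, 8 of 23 for spliced reads, 19 of 25 for the ratio per gene and 43 of 53 for the ratio per intron kept their call under every alternative run. Where a value below changed, the cause was not tested unless fewer introns or libraries made up the alternative.

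Scaling spliced reads by library totals gave 5 rises and 8 falls in place of 20 and 3, and turned the sign of FAU (−0.061), RPS14 (−0.14), RPS15 (−0.0015), RPS15A (−0.049), RPS20 (−0.14), RPS21 (−0.012), RPS26 (−0.17), RPS27A (−8.2e-05), RPS28 (−0.058) and RPS7 (−0.0028). The median intron turned RPS12 to 0.028. RPS26 turned to −0.14 without the most-read intron. Leaving out each library put RPS26 between −0.064 and 0.067 and RPS20 between −0.0066 and 0.069, and gave 16 to 19 rises and 3 to 4 falls. The shared replicate numbers were not treated as pairs (correlation of their deviations 0.0489). With 2 libraries per group the deviations mirror each other, so this single value cannot show whether the libraries were paired. With the replicate number as a block, spliced reads fell in 5 members in place of 3, and no other count of calls moved by over 1.5 times.

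For intronic reads, TMM scaling gave 28 rises and 12 falls in place of 47 and 4, DESeq2 gave 2 falls, and leaving out each library gave 0 to 48 rises and 0 to 3 falls. For the ratio per intron, falls numbered 1 with DESeq2, 1 with at least 30 reads and 1 to 3 without each library, in place of 3, and rises 44 to 54 without each library. Over the same omissions the log2 change ran across 0 in 8 introns, none of which had passed: RPS12 intron 5 (−0.30 to 0.0097), RPS14 intron 2 (−0.17 to 0.98), RPS19 intron 1 (−0.67 to 0.29), RPS2 intron 3 (−0.15 to 0.495), RPS23 intron 2 (−0.13 to 1.11), RPS24 intron 1 (−0.13 to 0.25), RPS25 intron 2 (−0.22 to 0.15) and RPS27 intron 3 (−0.022 to 0.76).

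For the ratio per gene, introns without an annotated exon left 3 genes to test, and all 3 rose. Genes entered by their mean over all libraries, so those with few DMSO reads could enter through H3B-8800, which favoured a rise in advance. Without the intron with the most intronic reads, 1 gene fell and signs turned in RPS3 (−1.36), RPS24 (−0.031), RPS25 (−0.024), RPS6 (−0.13) and RPS23 (0.67); RPS3 ran from −0.16 to 0.29 without each library in turn. Leaving out each library gave 24 rises and 0 falls each time. The difference in the summed share, 0.750 percentage points, was 0.118 over introns without an annotated exon, 0.671 over introns of up to 1000 bp, 1.20 as a mean over genes and 0.739 to 0.760 without each library.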

Other observations

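Not every member with a large change of its spliced reads had a large change of its introns. RPS3 fell in spliced reads with no rise of its ratio, RPS29 fell in spliced reads while its ratio rose by 3.44 on the log2 scale, and RPS3A rose in both, by 0.49 in spliced reads and by 3.58 in the ratio. RPS21, with 9.42% and 8.64% intronic reads in H3B-8800 cells, had a log2 change of spliced reads of 0.16. These values are given side by side without a test.

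In RPS12 and RPS27A, 1 intron each had a DMSO library with no intronic read. RPS12 intron 2 (hg38 chr6, 189 bp) was read 23 and 29 times in H3B-8800 cells and 0 and 2 times in DMSO cells, so that scaled by the library totals its intronic reads were 27.7 times higher, with an exact 95% interval from counting error of 7.30 to 235. This interval too pools libraries and takes both mates as independent reads, so it is too narrow. Without DMSO replicate 2 no DMSO read is left, and no change is given. RPS27A intron 3 was read 29 and 30 times in H3B-8800 cells and 7 and 0 times in DMSO cells, and its log2 change of the ratio, 3.13, became 2.20 without DMSO replicate 2. Without DMSO replicate 1 no DMSO read is left there either.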
